A study of Homo sapiens with 8 samples.

Results

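The 39 protein-coding genes of the HOXA, HOXB, HOXC and HOXD clusters were followed through 8 RNA sequencing libraries of lung cancer spheres. They were taken by gene type and by a name made of HOX, a cluster letter and a number. They are 39 of the 20298 protein-coding genes and of the 60106 genes in all that the count files list. HOXA holds 11 of them on chromosome 7 (27132612 to 27239725, minus strand), HOXB 10 on chromosome 17 (46605888 to 46806540, minus strand), HOXC 9 on chromosome 12 (54332549 to 54449814, plus strand) and HOXD 9 on chromosome 2 (176957619 to 177055635, plus strand), all in GRCh37.

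The libraries came from pneumospheres, floating spheres that non-small cell lung cancer cells form in low-attachment flasks in serum-free medium with growth factors. H23, H820 and H1975 are labelled adenocarcinoma and EBC1 squamous cell carcinoma, each an established human line. Each line gave 1 untreated library and 1 treated library, whose spheres had spent 15 min without serum in 25 µg/ml of PD-L1s (soluble, synthetic PD-L1, a ligand of the immune checkpoint receptor PD-1). The 2 libraries of a line, which also differ in treatment, were used as its replicates. A p-value between lines measures the spread left between such libraries once a treatment change common to the lines is fitted. It does not measure the spread between tumours.

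HOX genes encode homeodomain transcription factors that give cells their position along the body axis in the embryo. In each cluster the genes lie in the order in which they are used along that axis, from group 1 at the 3' end (anterior) to group 13 at the 5' end (posterior), and genes with the same number in different clusters, called paralogs, are the closest relatives. Polycomb proteins hold unused stretches silent, trithorax proteins keep used stretches active, and retinoic acid is a known inducer of the 3' genes. Cells of the adult body tend to keep a HOX pattern that reflects where they arose, and the developing lung uses 3' and middle genes of the HOXA and HOXB clusters.

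The labels were set against marker genes in CPM, counts scaled to the library total and by TMM, edgeR's scaling for library composition. All CPM values given are on this scale. Total counts were 15563010 and more in 6 libraries, but 5894946 in untreated EBC1 and 5559870 in untreated H820. Of 5 squamous markers EBC1 had 1 in the expressed class, SOX2 at 6.53 and 5.78 CPM, with TP63 at 0.192 and 0.314 and KRT5 at 0, whereas H1975 had 87.2 and 86.7 CPM of TP63. The 4 epithelial markers summed to 143.7 and 142 CPM in H23 and to 875.3 or more in each other library. In H23, CDH1 was at 2.01 and 1.66 CPM, against at least 331.6 elsewhere, while KRT8 and KRT18 were at 52.7 to 76.2. The 6 fibroblast markers summed to 19.6 to 57.7 CPM per library and were highest in H820 through COL1A1, while COL3A1 had 12.0 and 12.2 in H23 and 0 elsewhere. The 4 immune markers summed to at most 6.37 CPM, most of it CD14 in H1975 at 6.11 and 4.67, with the B-cell marker MS4A1 at 0 in all 8 libraries and the T-cell marker CD3E at most 0.0472. Untreated H820 carried 19.8 CPM of 3 red blood cell genes together, against 0.836 in treated H820. In such bulk libraries, fewer cells of a kind and less RNA per cell cannot be told apart.

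Promoters at 2 borders between expressed and silent stretches are shown first. They describe sequence only, and the HOXD and HOXA results below do not use them. The border of H820 in HOXD falls between HOXD9 and HOXD10, whose promoters are not shown. H23 expressed HOXD8 to HOXD11 and had HOXD12 below the threshold, while H820 expressed HOXD8 and had 0 counts of HOXD11. EBC1 and H820 expressed HOXA6 and not HOXA7, its 5' neighbour. The stretches come from RefSeq (GRCh38.p14), read 5' to 3' on the gene's strand, and run from 250 bases before the gene's start up to the start or to the first base of an annotated exon. Capitals mark CpG dinucleotides, the sites of DNA methylation. The positions are chr2:176129455-176129693, chr2:176107030-176107279 and chr2:176099545-176099729 on the plus strand, and chr7:27147775-27148024 and chr7:27156755-27156925 on the minus strand.
HOXD8 promoter: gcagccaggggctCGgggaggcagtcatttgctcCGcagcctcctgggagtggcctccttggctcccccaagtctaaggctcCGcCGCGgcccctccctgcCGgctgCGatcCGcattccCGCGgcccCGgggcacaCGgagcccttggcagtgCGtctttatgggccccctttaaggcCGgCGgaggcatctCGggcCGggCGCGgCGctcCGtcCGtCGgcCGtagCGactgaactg
HOXD11 promoter: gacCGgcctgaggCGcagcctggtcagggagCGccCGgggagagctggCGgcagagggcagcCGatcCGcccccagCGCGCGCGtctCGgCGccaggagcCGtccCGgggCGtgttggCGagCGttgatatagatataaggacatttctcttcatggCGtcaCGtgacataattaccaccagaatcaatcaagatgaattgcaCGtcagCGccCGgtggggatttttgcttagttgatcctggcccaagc
HOXD12 promoter: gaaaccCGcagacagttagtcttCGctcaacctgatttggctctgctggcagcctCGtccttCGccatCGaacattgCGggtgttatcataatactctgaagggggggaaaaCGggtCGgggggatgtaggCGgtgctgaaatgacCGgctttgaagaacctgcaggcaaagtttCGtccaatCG
HOXA6 promoter: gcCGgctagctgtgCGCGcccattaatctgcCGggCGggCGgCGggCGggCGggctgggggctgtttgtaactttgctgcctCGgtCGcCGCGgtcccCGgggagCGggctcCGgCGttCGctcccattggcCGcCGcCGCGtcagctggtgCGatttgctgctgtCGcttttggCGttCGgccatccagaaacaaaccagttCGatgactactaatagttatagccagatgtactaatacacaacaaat
HOXA7 promoter: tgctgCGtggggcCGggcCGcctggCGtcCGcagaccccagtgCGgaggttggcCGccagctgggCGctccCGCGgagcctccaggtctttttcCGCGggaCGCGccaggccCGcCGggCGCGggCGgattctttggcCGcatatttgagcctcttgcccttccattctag

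The HOXD8 stretch held 25 CpGs in 239 bases, HOXD11 held 23 in 250 and HOXD12 held 12 in 185. The HOXA6 and HOXA7 stretches held 27 CpGs in 250 bases and 20 in 171. CpG-rich sequence therefore stood on both sides of the HOXA border. The RefSeq table matched 20 of the 39 genes, with 27 promoter entries. Their 250 bases before the start had a median of 19 CpGs, against 11 over all 35116 entries. The letters TGATTNAT, a composite motif of HOX proteins and their TALE partners, were found on either strand in the entries of HOXA2 and HOXD11, and in 2.48% of all entries. In HOXD11 the match began 67 bases before the start. TATAAA was found in entries of HOXA3, HOXA9, HOXA10 and HOXD13, and in 10.7% of all entries. Such matches describe the letters of the windows only.

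Levels of different genes are compared in CPM per kb of exon, on the same TMM scale. A gene was called expressed in a line at 1 or more CPM per kb in both libraries, silent under 0.5 in both, and low otherwise. A stretch is a run of neighbouring HOX genes of the same class. In pairs of values below, the untreated library comes first.

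H820 expressed 25 of the 39 genes, H23 18, EBC1 10 and H1975 5. In percent these are 64.1, 46.2, 25.6 and 12.8, where 60.2%, 60.3%, 56.2% and 59.9% of all protein-coding genes were expressed in the same lines. Silent were 9 genes of H820, 12 of H23, 22 of EBC1 and 29 of H1975. Among all protein-coding genes, 32.7%, 33.5%, 38.0% and 35.0% were silent. H820 thus expressed HOX genes at about the share of other coding genes, and the other lines expressed fewer. Summed over the 39 genes, H820 had 122.7 and 140.3 CPM per kb, H23 had 74.1 and 70.5, EBC1 had 38.8 and 43.1 and H1975 had 19.8 and 21.7, so the ranges of the 4 lines did not overlap.

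**Figure D1:**
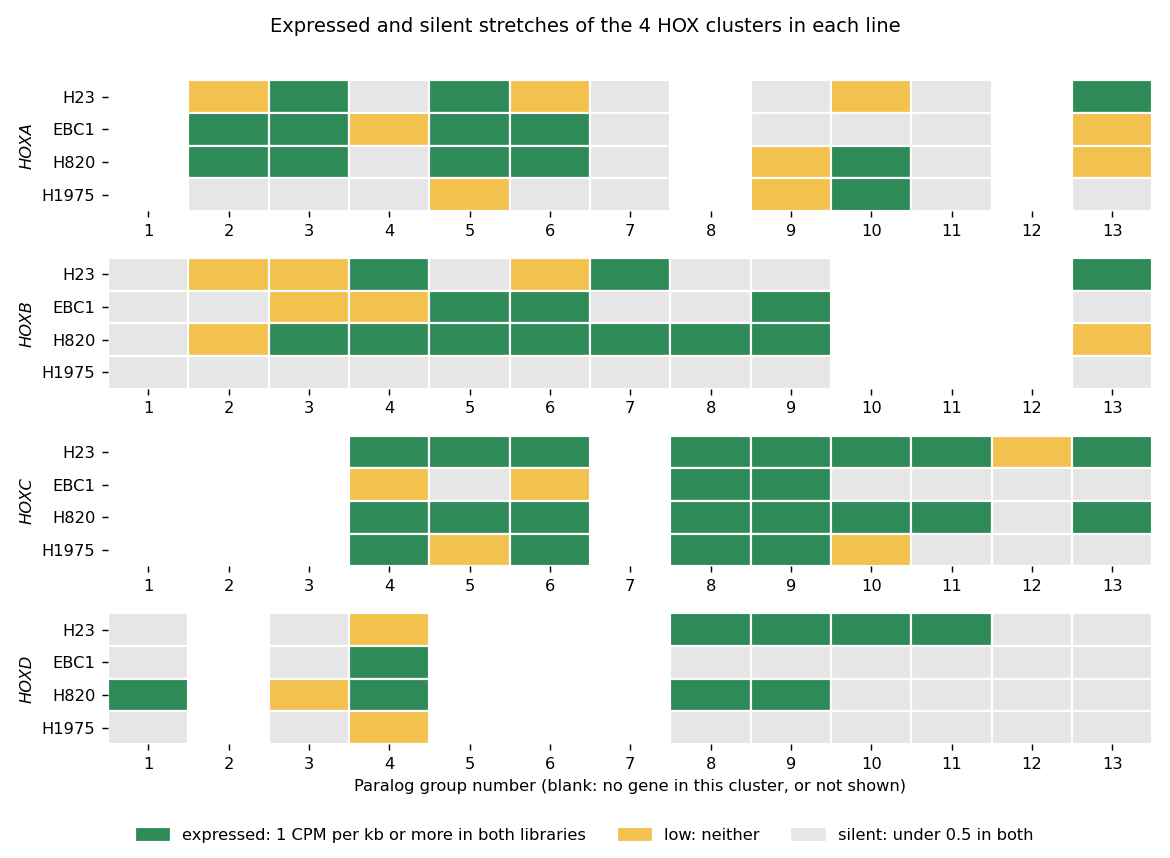
Class of 38 HOX genes in each line, 1 panel per cluster, with the paralog group number on the x axis (3' to 5') and the 4 lines as rows. Green is expressed, yellow low and grey silent, and a reader should see the unbroken green run of HOXB3 to HOXB9 in H820 above a HOXB row that is grey throughout in H1975.

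HOXC8 and HOXC9 were the genes expressed in all 4 lines. Silent in all 4 were HOXA7, HOXA11, HOXB1, HOXD12 and HOXD13. HOXA4, HOXA9, HOXB2, HOXC12 and HOXD3 were expressed in none but reached the low class in at least 1 line. HOXB1, the most 3' gene of its cluster, had 1 count in all 8 libraries together. HOXD13, at the 5' end of its cluster, had 6 and 4 counts in H23 and 0 in the other 6 libraries.

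In HOXB the lines ran from 7 genes expressed to 0. H820 expressed 7 neighbours in a row, HOXB3 to HOXB9, over 77.5 kb, and H1975 had all 10 HOXB genes in the silent class, over 200.7 kb. HOXB6 had 14.6 and 15.4 CPM per kb in H820, 2.94 and 2.33 in EBC1, 0.225 and 0.539 in H23, and 0 and 0.0241 in H1975. Its levels did not overlap between any of the lines. HOXB7 stood at 14.2 and 13.4 CPM per kb in H820 and at 4.13 and 3.30 in H23. It was 0 and 0.229 in EBC1 and 0.032 and 0.103 in H1975. HOXB7 was thus high in H820, intermediate in H23 and near 0 in the lines left, whose values overlapped.

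HOXB5 had 6.64 and 7.65 CPM per kb in H820, 1.22 and 1.25 in EBC1, 0.118 and 0.148 in H23, and 0 and 0.0231 in H1975. HOXB8 was at 3.90 and 6.50 CPM per kb in H820 and at most 0.211 in each library of the other lines. HOXB9 had 5.38 and 7.58 CPM per kb in H820, 2.23 and 2.69 in EBC1, 0.296 and 0.214 in H23, and 0.321 and 0.420 in H1975. In all 3 genes H820 lay above every other library. HOXB9 was also the HOXB gene with the highest level in H1975, not far below the silent threshold. At the 3' end, HOXB3 had 4.92 and 7.43 CPM per kb in H820 and HOXB4 4.96 and 6.18. In H23 they had 1.22 and 0.906, and 1.73 and 1.73. EBC1 had 0.368 and 0.744 of HOXB3 and 0.563 and 0.513 of HOXB4, and H1975 at most 0.0139 of either. For both genes the order H820, H23, EBC1, H1975 held without overlap.

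The EBC1 pattern in HOXB was broken. HOXB5, HOXB6 and HOXB9 were expressed, while HOXB7 and HOXB8 between them were silent over 7.71 kb, with 0.211 and 0.172 CPM per kb of HOXB8. H23 showed another break, with HOXB4 and HOXB7 expressed and HOXB5 between them silent. HOXB13 lies apart from the rest at the 5' end and is known as a prostate and hindgut gene. It had 2.22 and 2.36 CPM per kb in H23, 0.635 and 0.549 in H820, 0 in EBC1 and 0 and 0.0136 in H1975. Only H23 expressed it. HOXB2 was in no line at 1 CPM per kb in both libraries, and reached 0.982 in treated H820.

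**Figure D2:**
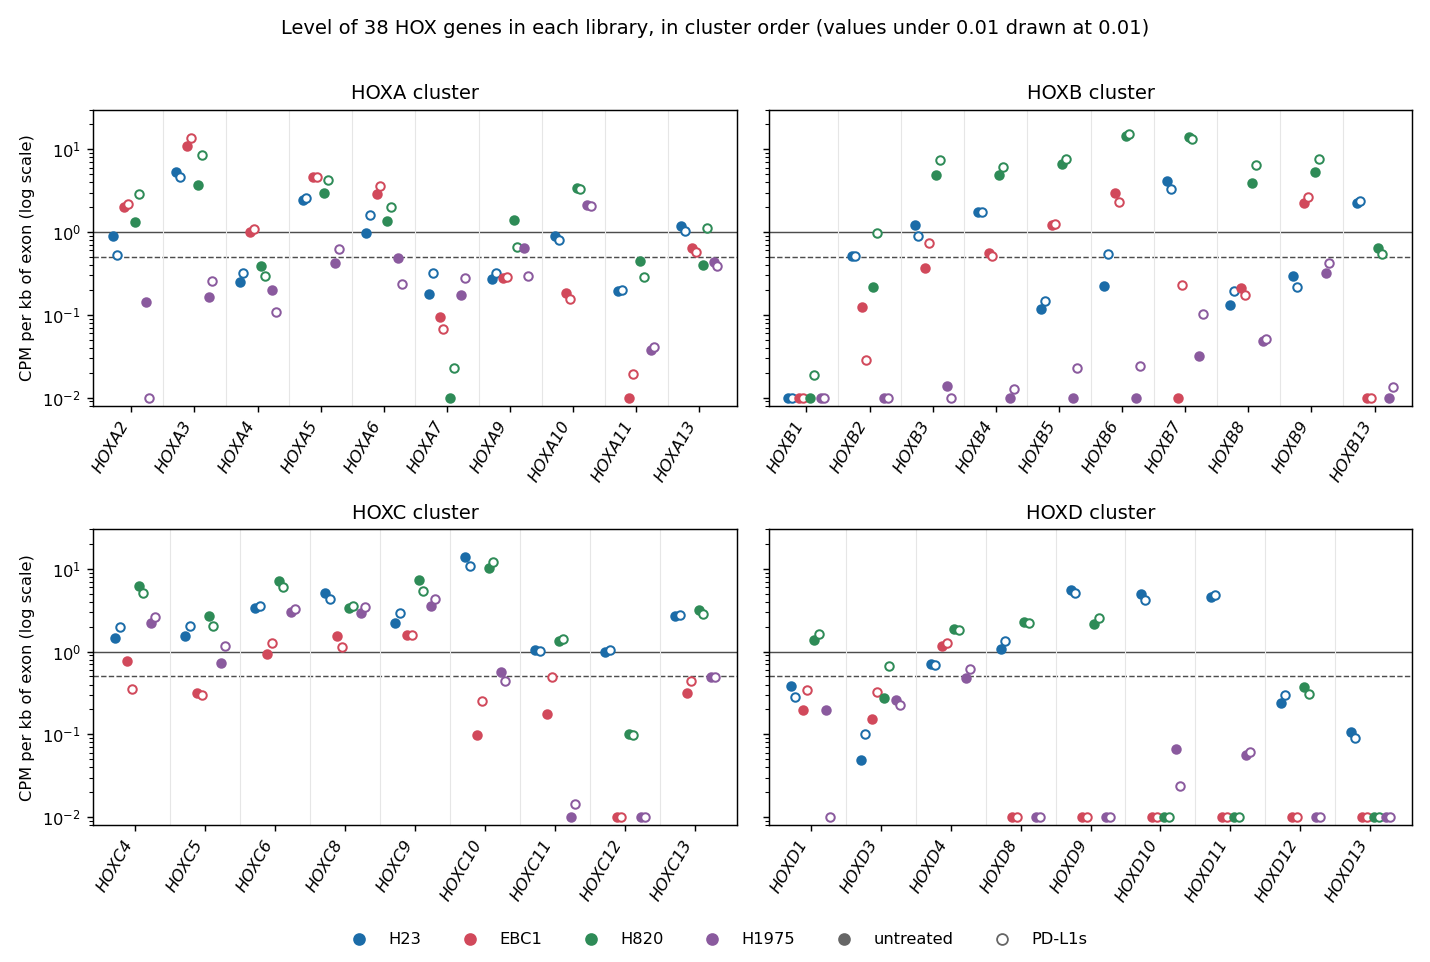
Level of 38 HOX genes in each library in CPM per kb of exon on a log axis, in cluster order, with filled points untreated, open points PD-L1s and 1 colour per line. The solid line is the threshold of 1 for expressed and the dashed line that of 0.5 for silent. The 2 points of a line mostly lie close together, and H820 (green) stands above the other lines through HOXB3 to HOXB9.

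In HOXA, H23, EBC1 and H820 expressed HOXA3 and HOXA5, and H1975 expressed neither. HOXA3, a 3' gene known for its role in the pharyngeal arches, had 11.1 and 13.8 CPM per kb in EBC1, 3.69 and 8.50 in H820, 5.37 and 4.63 in H23, and 0.167 and 0.257 in H1975. EBC1 lay above all other libraries and H1975 below all, while H23 and H820 overlapped. HOXA5, a gene needed for lung development, had 4.64 and 4.68 CPM per kb in EBC1, 2.96 and 4.23 in H820, 2.42 and 2.61 in H23 and 0.422 and 0.626 in H1975, with no overlap. HOXA6 followed, at 2.91 and 3.63 CPM per kb in EBC1, 1.37 and 2.02 in H820, 0.974 and 1.63 in H23 and 0.486 and 0.238 in H1975. Its values in H820 and H23 overlapped. HOXA2 was expressed in EBC1, at 2.01 and 2.20 CPM per kb, and in H820, at 1.31 and 2.87. It had 0.908 and 0.527 in H23 and 0.144 and 0 in H1975.

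The HOXA6 to HOXA7 border held in EBC1 and H820: HOXA7, whose promoter is printed above, had at most 0.0952 CPM per kb in their 4 libraries. H23 and H1975 had no more than 0.324 of it. EBC1 stayed silent from HOXA7 to HOXA11, over 31.5 kb. HOXA10, a posterior gene known in the uterus and in blood progenitors, was the HOXA gene that H1975 expressed, at 2.14 and 2.05 CPM per kb. H820 had 3.43 and 3.36, H23 0.890 and 0.796 and EBC1 0.183 and 0.156. The lines were ordered H820, H1975, H23, EBC1 without overlap. HOXA9 and HOXA10 share 19.3% and 11.7% of their exon bases with a read-through transcript of both, and a read there counted for each gene. HOXA13, at the 5' end, was expressed in H23, at 1.19 and 1.03 CPM per kb. It had 0.404 and 1.14 in H820, 0.649 and 0.579 in EBC1 and 0.434 and 0.384 in H1975, and treated H820 overlapped H23. HOXA4, which shares 31.0% of its exon bases with an overlapping gene, stood at 0.990 and 1.08 in EBC1 and at most 0.388 in the other libraries. HOXA11 was at most 0.443 in any library.

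HOXC was the cluster in which each line expressed at least 2 genes. H23 and H820 each expressed HOXC4 to HOXC11, 7 neighbours over 82.9 kb, and HOXC13. HOXC8 had 5.10 and 4.34 CPM per kb in H23, 3.41 and 3.57 in H820, 2.91 and 3.47 in H1975 and 1.53 and 1.14 in EBC1. H820 and H1975 overlapped in it, while H23 lay above and EBC1 below all others. HOXC9 had 7.29 and 5.43 CPM per kb in H820, 3.56 and 4.27 in H1975, 2.19 and 2.91 in H23 and 1.60 and 1.58 in EBC1, without overlap. HOXC6 had 7.09 and 6.02 in H820, 3.41 and 3.53 in H23, 3.01 and 3.29 in H1975 and 0.946 and 1.26 in EBC1. HOXC4 had 6.13 and 5.14 in H820, 2.23 and 2.64 in H1975, 1.47 and 1.996 in H23 and 0.763 and 0.356 in EBC1. Both were again highest in H820 and lowest in EBC1. HOXC4 and HOXC6 share exon bases with each other, 21.3% and 14.9% of them with some other gene. HOXC5 shares 59.9% with other genes, so its 2.72 and 2.03 CPM per kb in H820 and 1.54 and 2.06 in H23 cannot be assigned to it alone.

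Towards the 5' end of HOXC, HOXC9 was the last gene expressed in EBC1 and H1975, and HOXC10 was silent in EBC1 and low in H1975. HOXC10, a gene of the posterior trunk and hind limb, had 13.9 and 10.96 CPM per kb in H23 and 10.2 and 12.0 in H820. It had 0.564 and 0.438 in H1975 and 0.099 and 0.255 in EBC1. H23 and H820 overlapped and lay far above both other lines. HOXC11 followed with 1.06 and 1.02 in H23, 1.35 and 1.41 in H820, 0.177 and 0.494 in EBC1 and 0 and 0.0144 in H1975. HOXC13, known from hair and nail, had 2.72 and 2.80 in H23, 3.15 and 2.84 in H820, 0.317 and 0.444 in EBC1 and 0.487 and 0.487 in H1975. EBC1 was silent from HOXC10 to HOXC13, over 51.5 kb, and H1975 from HOXC11 to HOXC13, over 38.9 kb. HOXC12, between HOXC11 and HOXC13, had 0.975 and 1.06 CPM per kb in H23, 0.102 and 0.0975 in H820 and 0 in EBC1 and H1975. It broke the expressed run of H820 and stood at the threshold in H23.

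HOXD split the lines by how far 5' the expressed stretch reached. H23 expressed HOXD8 to HOXD11 (25.4 kb), H820 HOXD4 to HOXD9 and HOXD1, EBC1 HOXD4, and H1975 none. HOXD9 had 5.58 and 5.06 CPM per kb in H23, 2.17 and 2.53 in H820 and 0 in both libraries of EBC1 and of H1975. HOXD8 had 1.07 and 1.34 in H23, 2.26 and 2.21 in H820 and 0 in the 4 libraries of EBC1 and H1975. Both genes were thus present in H23 and H820 and listed at 0 in the lines left. With 3 counts taken as the limit that 0 allows over a pair of libraries, HOXD9 was at least 43.9-fold lower in EBC1 and at least 70.3-fold lower in H1975 than the mean of the other 6 libraries. For HOXD8 these bounds were 27.6-fold and 44.3-fold.

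HOXD10 had 4.91 and 4.17 CPM per kb in H23, 0 in both libraries of EBC1 and of H820 and 0.066 and 0.024 in H1975. HOXD11 had 4.51 and 4.82 in H23, 0 in EBC1 and H820 and 0.057 and 0.062 in H1975. H23 alone had these genes above the silent class. In H820 the border therefore fell between HOXD9 and HOXD10, with 2.17 CPM per kb or more of HOXD9 beside 0 counts of HOXD10. In H23 it fell between HOXD11 and HOXD12, which had 0.239 and 0.299 CPM per kb. HOXD12 had 0.378 and 0.311 in H820 and 0 in EBC1 and H1975. HOXD1 was expressed in H820, at 1.37 and 1.62 CPM per kb, and was at most 0.386 in the other 6 libraries. HOXD4 had 1.85 and 1.81 in H820 and 1.18 and 1.29 in EBC1, but 80.5% of its exon bases, and 88.5% of those of HOXD3, are shared with an overlapping gene.

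Each line was compared with the mean of the other 3 on the log2 scale in edgeR (quasi-likelihood F test, Benjamini-Hochberg adjustment over 24185 genes, called under 0.05). HOXB1 and HOXD13 did not pass the filter on low counts, so 37 HOX genes were tested. In H820, 30 of the 37 were higher (81.1%) and 1 was lower, where 30.6% and 22.9% of all genes tested were called in these directions. In H23, 21 were higher and 2 lower, against 34.4% and 27.4% of all genes. In EBC1, 9 were higher and 11 lower, against 28.1% and 26.4%. In H1975, 3 were higher and 20 lower (54.1%), against 31.0% and 22.6%. For H820, H23, EBC1 and H1975 the 37 genes had median log2 differences of 2.36, 1.02, -1.12 and -2.42, beside 0.04, 0.10, -0.08 and 0.03 over all genes. A test for any difference among the 4 lines called all 37, with 86.3% of all genes. The filter kept genes by their level in any line, so these shares describe the genes kept.

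The mean of logs is pulled down by a line near 0. In H23, for example, HOXA3, HOXB3, HOXB4 and HOXB7 were called higher although their mean CPM was below that of the other 6 libraries. The same held for HOXB5 and HOXB6 in EBC1, HOXB13 and HOXC12 in H820 and HOXC4 in H1975. The log2 difference could not be estimated for genes at or near 0 in that line and in another: 6 in EBC1 (HOXC12 and HOXD8 to HOXD12), 5 in H1975 (HOXB13, HOXC12, HOXD8, HOXD9 and HOXD12) and 2 in H820 (HOXD10 and HOXD11). These count as not called, whatever their levels. limma-voom, which adds a small count to each library and so gives such genes a value, called 16 genes lower in EBC1, 26 in H1975 and 3 in H820. With scaling by library size alone, the median of all genes moved by 0.44 in H23 and by -0.32 in EBC1 on the log2 scale. In H23 it called 23 HOX genes higher and 2 lower, with 12171 and 4300 of all genes in place of 8322 and 6618. In EBC1 it called 9 and 11 HOX genes, with 4779 and 8923 of all genes in place of 6791 and 6376.

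A plain count of libraries does not depend on the scale of the mean. Both libraries of H820 lay above all 6 others in 20 of the 37 genes (54.1%), where this held for 16.4% of all genes tested. They lay below all 6 others in 1, HOXA7, against 12.7% of all genes. Both libraries of H1975 lay below all others in 14 (37.8%), against 11.9% of all genes, and above all others in 0, against 16.8%. EBC1 lay above the rest in HOXA3, HOXA4, HOXA5 and HOXA6 and below it in 9 genes, of which 7 were HOXC genes. Of all genes, 16.0% and 17.8% did so. H23 lay above the rest in 6 (HOXB13, HOXC8, HOXC12, HOXD9, HOXD10 and HOXD11) and below it in HOXB9 and HOXD3, beside 21.7% and 16.8% of all genes. By mean level, H820 was the highest line for 24 of the 39 genes, H23 for 10, EBC1 for 5 and H1975 for 0. The shares over all genes tested were 24.7%, 28.9%, 23.1% and 23.3%. The 39 include HOXB1 and HOXD13, which were not tested and count for H820 and H23 on 1 and 10 counts in total.

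**Figure D3:**
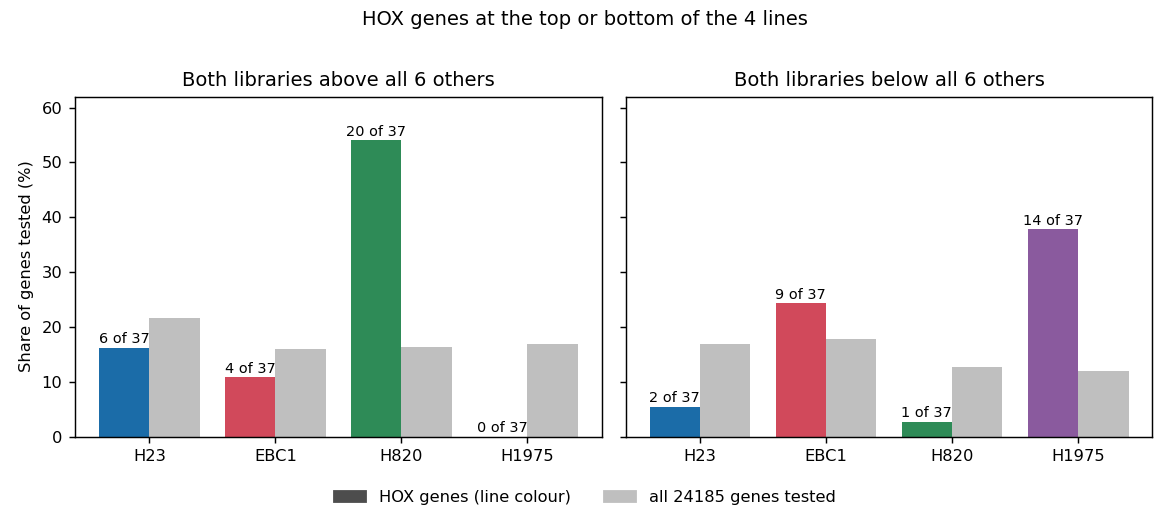
Share of the 37 HOX genes tested (coloured bars) and of all 24185 genes tested (grey bars), in percent, for which both libraries of a line lay above (left) or below (right) all 6 other libraries. H820 stands out on the left with 20 of 37 and H1975 on the right with 14 of 37, and H1975 has 0 on the left.

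Of the called genes in H820, HOXB6, HOXB5 and HOXB8 had log2 differences of 5.95 ± 0.25 (SE), 5.74 ± 0.28 and 5.51 ± 0.30 (edgeR, adjusted p 4.8e-13, 4.3e-12 and 2.6e-11). These fitted values are also raised by H1975, which had 1 count each of HOXB6 and HOXB5 and 4 of HOXB8. By mean CPM, H820 had 14.8, 15.5 and 38.6 times the HOXB6, HOXB5 and HOXB8 of the other 6 libraries. HOXD8 and HOXD9 had larger or similar fitted values, which rest on the 0 counts of EBC1 and H1975. Both H820 libraries of HOXD8 lay above all others, but its HOXD9 lay below that of H23. HOXA7 was the gene called lower in H820, on 1 count, and the pooled ratio of the other libraries to H820 was 10.8 (95% interval 1.85 to 437.3). That call was lost under 8 of the alternatives listed at the end.

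In H1975, HOXA3 differed by -5.11 ± 0.29 on the log2 scale (edgeR, adjusted p 4.9e-11). HOXB4, HOXB3, HOXB6 and HOXC11, among those called lower with the largest fitted values, had 1 or 2 counts each in that line. By pooled CPM the other libraries had 422.4 times the HOXB4 of H1975 (95% counting interval 75.6 to 16700), 354.5 times the HOXB3 (97.98 to 2930) and 433.9 times the HOXB6 (77.7 to 17160). For HOXC11 the ratio was 139.8 (24.9 to 5538). HOXA10 was called higher, with a log2 difference of 1.42 ± 0.20 (edgeR, adjusted p 1.1e-05), though H820 had more of it. HOXA7 and HOXC4 were also called higher, at 1.75 ± 0.65 and 0.58 ± 0.23 (edgeR, adjusted p 0.029 and 0.037), and each call was lost under 8 of the alternatives. HOXA7 overlapped H23, and HOXC4 lay between H820 and H23.

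In EBC1 the highest called genes were HOXA3 at 2.72 ± 0.19, HOXB6 at 2.51 ± 0.36, HOXB5 at 2.33 ± 0.39, HOXA4 at 2.12 ± 0.42 and HOXA2 at 2.07 ± 0.41 on the log2 scale (edgeR, adjusted p 7.4e-10 to 0.00035). HOXB6 and HOXB5 are higher on the log scale only, with both H820 libraries above EBC1. Their mean was 5.17 and 2.53 CPM in EBC1 and 10.05 and 4.96 over the other 6 libraries. HOXA2 overlapped H820, with 2.01 and 2.20 CPM per kb in EBC1 and 1.31 and 2.87 in H820. The lowest called genes with more than 1 count were HOXC10 at -4.17 ± 0.33, HOXA10 at -3.45 ± 0.33 and HOXB7 at -3.01 ± 0.61 (edgeR, adjusted p 5.5e-09, 5.4e-08 and 0.00041). HOXB13, at 0 in EBC1, was at least 30.7-fold lower than the mean of the other 6 libraries. HOXA11 had 1 count, with a pooled ratio of the others to EBC1 of 10.4 (95% interval 1.77 to 420.2), and its call was lost under 9 of the alternatives.

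In H23, HOXD10 and HOXD11 had 304.1 and 236.2 times the mean level of the other 6 libraries, and HOXD9 6.78, HOXC12 30.6 and HOXB13 11.5 times. These ratios of means were not themselves tested, and are given because the fitted values again rest on lines at 0. The fitted log2 differences of these genes were called, in the same order (edgeR, adjusted p 4.0e-11, 1.2e-10, 1.4e-10, 1.4e-08 and 1.6e-10). HOXB9 was lower by a log2 difference of -2.78 ± 0.29 and HOXD3 by -2.07 ± 0.57 (edgeR, adjusted p 1.1e-07 and 0.0042).

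The lines also differed in the share of HOX RNA along the axis. Groups 9 to 13 made up 55.6% and 54.1% of the summed CPM per kb in H23, 41.9% and 39.2% in H1975, 29.6% and 27.2% in H820 and 14.3% and 15.1% in EBC1. Groups 1 to 4 made up 47.5% and 49.99% in EBC1 and 27.9% or less in every other library. H23 was thus the most posterior in its HOX RNA and EBC1 the most anterior, with no overlap between lines in the first share. Single genes weigh on these shares. HOXA3 gave 11.1 and 13.8 of the 18.4 and 21.6 CPM per kb of groups 1 to 4 in EBC1. HOXC10 gave 13.9 and 10.96 of the 41.2 and 38.1 of groups 9 to 13 in H23. By cluster, HOXB held 45.2% and 46.8% of the HOX level in H820, HOXA 61.5% and 63.5% in EBC1, and HOXC 43.6% and 43.5% in H23 and 68.1% and 72.9% in H1975. H820 expressed a member of 12 of the 13 paralog groups, H23 of 10, EBC1 of 7 and H1975 of 5. Of the 35 pairs of neighbours within clusters, 24 shared a class in H1975, 20 in H820, 19 in EBC1 and 15 in H23. Such sharing is more frequent when most genes of a line fall in 1 class, as in H1975 with 29 of 39 silent. The counts were not set against a shuffled order. The classes matched in 21 of 39 genes between H23 and H820, against 83.8% of all protein-coding genes, and in 15 between H820 and H1975, against 86.7%. They matched in 15 between H23 and EBC1, 16 between H23 and H1975 and 19 between EBC1 and H820. Between EBC1 and H1975 they matched in 20, of which 18 were silent in both. The shares over all protein-coding genes were not taken for these other pairs. Expressed in H820 and silent in H1975 were 16 of the 39, and 2.72% of all protein-coding genes.

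The other genes of the clusters were described in CPM. They are noncoding genes, many of them antisense to a HOX gene and counted apart by strand, and HOXA10-HOXA9, the read-through gene that shares exons with HOXA9 and HOXA10. Of 24 matched in the files 16 were tested, the read-through gene included. Called higher and lower were 15 and 0 in H820 (30.6% and 22.9% of all genes tested), 8 and 1 in H23 (34.4% and 27.4%), 3 and 4 in EBC1 (28.1% and 26.4%), and 0 and 10 in H1975 (31.0% and 22.6%). The lists that follow are to be read against the same percentages. HOTAIRM1, at the 3' end of HOXA, had 26.9 and 33.8 CPM in H820, 13.1 and 11.7 in EBC1, 3.90 and 3.47 in H23 and 0 in H1975. HOXA-AS2 had 24.9 and 34.0, 9.03 and 8.47, 1.89 and 2.41, and 0.0437 and 0 in the same order. Both were ordered H820, EBC1, H23, H1975 without overlap. HOTAIR, which lies between HOXC11 and HOXC12, had 4.23 and 3.11 CPM in H820, 3.57 and 3.52 in H23, 0.384 and 0.404 in EBC1 and 0 in H1975. H820 and H23, the lines that expressed HOXC10 and HOXC11, overlapped in HOTAIR and lay above both other lines. HAGLR, beside HOXD1, had 19.8 and 15.5 CPM in H820, 4.61 and 5.16 in EBC1, 3.49 and 3.27 in H23 and 1.40 and 1.27 in H1975, and H820 was also the line that expressed HOXD1. HOTTIP, at the 5' end of HOXA, was at most 1.30 CPM in any library, and HOXA11-AS1 reached 2.88 and 3.995 in H820 and at most 0.522 elsewhere.

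Of 22 genes tested that flank the clusters, 7 were higher and 3 lower in H820, 6 and 7 in H23, 7 and 7 in EBC1 and 7 and 5 in H1975, where 31.0% and 22.6% of all genes were called in the last line. SKAP1, near HOXB, had 6.44 and 6.04 CPM in H820, 0.522 and 0.654 in H23, 0.384 and 0.359 in EBC1 and 0.0873 and 0 in H1975. Its order of lines was that of HOXB3 and HOXB4, without overlap. SKAP2, a neighbour of HOXA, had 218.1 and 223.9 CPM in H1975 and 212.3 and 213.9 in EBC1, but 95.7 and 128.1 in H820 and 49.1 and 49.3 in H23. NFE2, near HOXC, had 27.9 and 27.6 CPM in H1975, 3.90 and 8.83 in H820, 6.92 and 7.58 in EBC1 and 0.0803 and 0 in H23. NFE2 was thus highest in H1975, the line with the lowest summed HOX level. SKAP2 was highest there by a small margin over EBC1, the line with the highest HOXA3, HOXA5 and HOXA6. TTLL6, near HOXB and named after its values were seen, had 4.70 and 3.87 CPM in H23, the line that expressed HOXB13, and at most 0.372 elsewhere.

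Homeodomain partners of the TALE class bind DNA together with HOX proteins. Of 10 tested, 3 were higher and 4 lower in H820, where 30.6% and 22.9% of all genes were, with 6 and 1 in H23, 2 and 5 in EBC1 and 5 and 3 in H1975. MEIS1 had 11.6 and 11.1 CPM in H1975, 5.74 and 6.19 in H23, 4.61 and 4.75 in EBC1 and 2.37 and 1.67 in H820. MEIS1 was thus highest in the line with the fewest HOX genes expressed and lowest in the line with the most. The list as a whole did not share this order. The 3 called higher in H820 were PBX2, MEIS2 and PKNOX1, at log2 differences of 0.46, 0.51 and 0.76. MEIS3 had 26.8 and 25.2 CPM in H1975, 9.68 and 9.50 in H23, 3.56 and 1.95 in H820 and 0 and 0.404 in EBC1, and TGIF1 had 146.0 and 155.7 in H23 and 36.3 to 46.4 elsewhere. CDX2, a gut homeodomain factor known to act on HOX clusters, had 12.2 and 6.32 CPM in H820, 2.93 and 2.82 in H23 and 0 in EBC1 and H1975. PDX1, of the same ParaHox family, had 3.39 and 1.67 in H820, 0.361 and 0.453 in H23 and at most 0.0437 elsewhere. The lines with CDX2 counts were the 2 that expressed most HOX genes.

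Of 33 polycomb genes tested, 10 were higher and 8 lower in H820, 12 and 7 in H23, 16 and 5 in EBC1 and 3 and 17 in H1975. The H820 counts are near the 30.6% and 22.9% of all genes, and in H1975 22.6% of all genes were lower. EZH2, the histone methyltransferase that writes the polycomb silencing mark, had 65.1 and 60.4 CPM in EBC1, 52.2 and 50.3 in H23, 39.4 and 39.3 in H1975 and 25.1 and 37.4 in H820. It was called higher in EBC1 and lower in H820, at log2 differences of 0.64 and -0.66 (edgeR, adjusted p 0.00048 and 0.00079). ASXL1, part of a polycomb deubiquitinase, stood at 1968 and 1991 CPM in H820 and at most 191.8 elsewhere, and PHC1, a subunit of polycomb complex PRC1, at 38.9 and 40.9 in H23, 23.6 and 24.8 in EBC1 and at most 8.69 elsewhere. PCGF5 had 119.7 and 117.2 in EBC1 and 6.67 and 10.7 in H23, with 27.6 to 63.9 in the lines left.

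Of 20 trithorax group and H3K27 demethylase genes, 4 were higher and 9 lower in H820, where 30.6% and 22.9% of all genes were, with 4 and 6 in H23, 8 and 4 in EBC1 and 7 and 2 in H1975. KMT2A, the best known activator of HOX genes, had 406.7 and 383.6 CPM in EBC1, 383.1 and 376.1 in H23, 334.9 and 340.1 in H1975 and 278.6 and 324.7 in H820, and did not pass the test among lines (edgeR, adjusted p 0.13). MLLT3, a known fusion partner of KMT2A in leukaemia, ran from 1.69 and 2.31 CPM in H23 to 34.6 and 40.7 in H820. WDR5, a subunit of the KMT2A complex, ran from 23.7 and 32.1 CPM in H820 to 113.8 and 111.1 in H1975. DOT1L, a histone methyltransferase, ran from 46.4 and 53.3 in H820 to 142.9 and 198.9 in EBC1. Of 17 retinoid signalling genes, 8 were higher and 4 lower in H820, 7 and 8 in H23, 6 and 5 in EBC1 and 7 and 5 in H1975, beside 30.6% and 22.9%, 34.4% and 27.4%, 28.1% and 26.4%, and 31.0% and 22.6% of all genes. RDH10 and ALDH1A3, enzymes on the way from retinol to retinoic acid, had 1698 and 1178, and 512.7 and 276.2 CPM in H820, against at most 142.8 and 86.7 elsewhere. DHRS3, an enzyme that retinoic acid induces, had 165.5 and 210.7 CPM in H820 and at most 79.7 elsewhere. Other genes that retinoic acid induces, named after their values were seen, were not high in H820. CYP26A1, which breaks retinoic acid down, had 0.677 and 1.12 CPM in H820, against 11.3 and 16.0 in EBC1, and was called lower in H820 (log2 difference -1.66, edgeR, adjusted p 0.00025). The receptor gene RARB had 0.169 and 0.325 CPM in H820 and 7.03 and 8.50 in H23. The part of any of these genes in the HOX levels was not tested.

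The treatment asked whether 15 min of PD-L1s changed HOX RNA, with the 4 lines as replicates and each line its own control. None of the 37 genes tested was called (edgeR), with 0.0372% of all genes called. HOXA3 was the gene with an unadjusted p under 0.05, at a log2 difference of 0.40 ± 0.18 (edgeR, adjusted p 0.9995). HOXB8 and HOXA9 came next, at 0.59 ± 0.34 and -0.63 ± 0.37 (edgeR, adjusted p 0.9995 for both). The median over the 37 was 0.09, beside 0.04 over all genes. DESeq2 and limma-voom also called 0.

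Within a line there is 1 library per condition and no replicate check, so the ratios below describe those libraries. The HOX genes that reached 50 counts in either library numbered 22 for H23, 11 for EBC1 and 6 for H1975, and none of them differed by over 2-fold. Of all genes at that depth, 0.142%, 1.33% and 0.133% were over 2-fold higher in the treated library of these lines, and 0.0906%, 0.115% and 0.0266% over 2-fold lower. In H820, 3 of 25 were over 2-fold higher in the treated library, where 4.23% of all such genes were. None was over 2-fold lower, against 0.873% of all such genes. They were HOXA13, HOXA3 and HOXA2, at log2 ratios of 1.37, 1.19 and 1.05, with 12, 80 and 14 counts in the shallow untreated library. The same library held the counts of red blood cell genes given above. The source of those counts is not known, and their part in these ratios was not tested. HOXA3 had log2 ratios of 0.32 in EBC1 and -0.21 in H23.

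**Figure D4:**
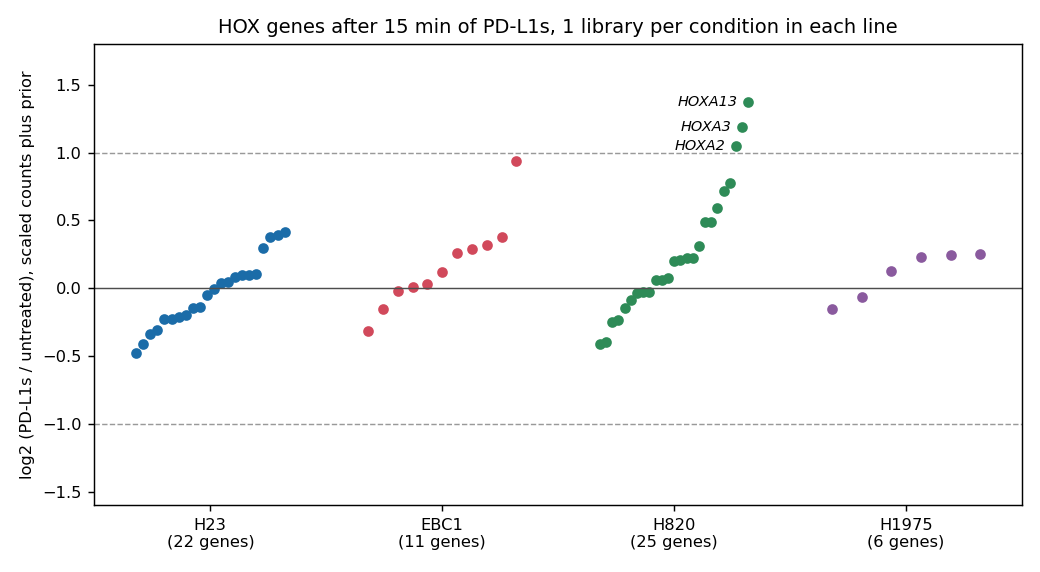
Log2 ratio of the treated to the untreated library for each HOX gene that reached 50 counts in either library of the line, 1 column of points per line, sorted, with dashed lines at 2-fold. H820 has the widest spread, from -0.41 to 1.37, and is the line with genes above 2-fold, named beside their points.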

How the data were processed

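Each of the 8 deposited files holds raw counts of read pairs per gene in 1 library, not normalised, with the exonic length of each gene. The tools were STAR 2.7.3a and Subread 2.0.0 and the build was GRCh37 (hg19), per the submitters' processing notes. Per the file headers, featureCounts v2.0.0 summed exons per gene of the GENCODE basic annotation, by strand, and counted a pair for every gene it overlapped, so overlapping exons count more than once. Per the labels' protocols, ribosomal RNA was removed from total RNA, so unspliced RNA is present.

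The counts were tested with edgeR 4.0.16 in R 4.3.3 (quasi-likelihood F test, TMM scaling, filter with a minimum count of 10 and line as group), with line and treatment as terms. The pairing of treated with untreated libraries comes from the line in the labels. DESeq2 1.42.0, limma 3.58.1 (voom), other scalings and filters and leaving out libraries were alternatives. Within lines, log2 ratios used a prior count of 5. SE is that of the fitted difference, and all tests were two-sided. Counting intervals are exact, at 95%, and cover counting error only. The fits were tested on simulated data.

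The members, gene lists and tests were chosen with earlier results of these data known. Of 168 listed symbols, 166 were matched. All 39 HOX genes were to be accounted for. Fitted values were to be given for up to 5 called genes per direction with the largest change in each line and for the 3 smallest p-values of the treatment, and levels for up to 3 genes of each other list by p among lines. HOTAIR, HOTTIP, HOTAIRM1, HOXA11-AS, EZH2, KMT2A and MEIS1 were always to be named. Single values of 2 of the genes counted are not reported here. HOXA11-AS is listed in the files as HOXA11-AS1. SKAP1, HAGLR and others named come from these lists.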

Additional observations from a re-analysis of the deposited data

How the results depend on the processing

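The counts of HOX genes called higher in H23, EBC1 and H820 and lower in EBC1 and H1975 stayed within 1.5 times of the values given under each alternative run (scaling, filter, protein-coding genes only, DESeq2, limma-voom, no treatment term, each library left out). Small counts moved more. Those lower in H23 were 1 with a minimum count of 50 and 5 with limma-voom, and those lower in H820 were 0 without the filter, 0 with a minimum count of 50, 2 with DESeq2 and 3 with limma-voom. Those higher in H1975 were 1 with a minimum count of 50 and 1 with DESeq2. Leaving out each library gave 1 to 3 lower in H23 (1 without treated EBC1), 0 to 1 lower in H820 (0 without treated H23, treated EBC1 or either library of H820 or H1975) and 1 to 4 higher in H1975 (1 without untreated H23, treated EBC1 or either H1975 library). A minimum count of 50 left 30 HOX genes to test.

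EBC1 expressed 6 genes at 2 CPM per kb and 16 at 1 CPM with no length, and H1975 expressed 8 at 1 CPM with no length. In an alternative chosen after seeing the data, 6 genes of H23 were silent under 0.25 CPM per kb. The treatment called 0 HOX genes under every alternative, also with no replicate block and with each line left out. With H23 and H1975 only, the treatment value of HOXA3 was -0.12. Of 527 values of named genes under alternatives, 488 kept direction and call and 38 lost the call, of which 8 each belonged to HOXA7 in H820, HOXA7 in H1975 and HOXC4 in H1975 and 9 to HOXA11 in EBC1. The causes were not tested. HOXB13 in EBC1 lost its call without treated EBC1 and without treated H1975, where EBC1 and H1975 were then both at 0. Depth limits the silent class: untreated EBC1 and H820 hold 5894946 and 5559870 counts.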
